A study of Mus musculus with 4 samples.

Results

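Expression of 6 genes was followed across the series: Kit, Ptprf, Fam84b and Ccnb1ip1, whose counts are high in the MNK-3 line, and Flt3 and Kitl, a related receptor and the ligand of KIT. They are 6 of the 30731 genes listed for every library, and all 6 passed the filter on low counts that left 25283 genes for testing. The first 4 were selected on their measured CPM, which stood higher in MNK-3 than in the other cells, and Flt3 and Kitl were added as context, so the levels of all 6 are given as a description with no test. The series holds RNA-seq of mouse innate lymphoid cells, which are lymphocytes without rearranged antigen receptors, in 3 groups and 4 libraries. MNK-3, a cell line labelled ILC3-like and wild type, gave 2 libraries (replicates 1 and 2). It was derived from thymocytes of NIH-Swiss fetuses at day 15 and was cultured in IL-7 and IL-15 at 10 ng/ml. Group 2 cells (ILC2) gave 1 library, from bone marrow of pooled wild type C57BL/6 mice aged 8 to 12 weeks, and had been grown in IL-25, IL-33, IL-7 and IL-2, each at 10 ng/ml. Natural killer (NK) cells gave 1 library, from the spleen of pooled wild type C57BL/6 mice of the same ages. A difference between MNK-3 and the other cells is therefore also one between a cell line and primary cells. It is also one between mouse strains, ages, tissues of origin and culture conditions, and these cannot be told apart.

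KIT is a receptor tyrosine kinase of class III, a family that also holds FLT3, CSF1R and the PDGF receptors. Its ligand, stem cell factor, is encoded by Kitl and made as membrane-bound and soluble forms, mostly by stromal and epithelial cells. KIT signalling sustains haematopoietic stem cells, mast cells, melanocytes and germ cells, and KIT is found on early lymphoid progenitors, on ILC precursors and on many ILC3. FLT3 acts in early lymphoid and dendritic cell progenitors.

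Levels are CPM, the standard read count scaled to the total on the shared genes, and adjusted between libraries by trimmed means of M values. Reads on shared genes numbered 25617762 and 15177345 in MNK-3 replicates 1 and 2, 9298162 in ILC2 and 4637812 in NK cells. MNK-3 replicate 1 stood apart in its reads that lay on no feature counted for a gene. They were 75.8% of its reads, against 24.3% in MNK-3 replicate 2, 23.1% in ILC2 and 47.1% in NK cells. That library also had a count for 95.6% of shared genes, against 69.6% to 76.0% in the other libraries. All 6 ILC3 defining genes were at least 2-fold higher in MNK-3 relative to NK cells, as were 35.2% of all genes, and 4 of the 6 were relative to ILC2, as were 40.1%. None passed the test. Il7r, the IL-7 receptor, had 194 and 408 CPM in MNK-3, against 426 CPM in ILC2, and Il22 had 5.57 and 10.3 CPM in MNK-3, against 5.67 CPM in ILC2. Il23r, the IL-23 receptor, had 151 and 359 CPM in MNK-3 and no count in ILC2 or NK cells. The test called all 6 NK defining genes lower in MNK-3 relative to NK cells, where 0.518% of all genes were (limma voom, Benjamini-Hochberg adjusted p under 0.05). It called 4 of 6 ILC2 defining genes lower in MNK-3 relative to ILC2, where 0.332% of all genes were. These lists were chosen with earlier results of these data known. None of these calls held with library factors taken from genes abundant in every library. For ILC2 and NK cells, 1 library each gives no spread, so intervals below are 95% Poisson intervals that cover counting error only. Nothing in the labels says that the MNK-3 libraries came from separate cultures, so a p-value reflects the spread of 2 libraries that may differ for technical reasons alone.

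**Figure D1:**
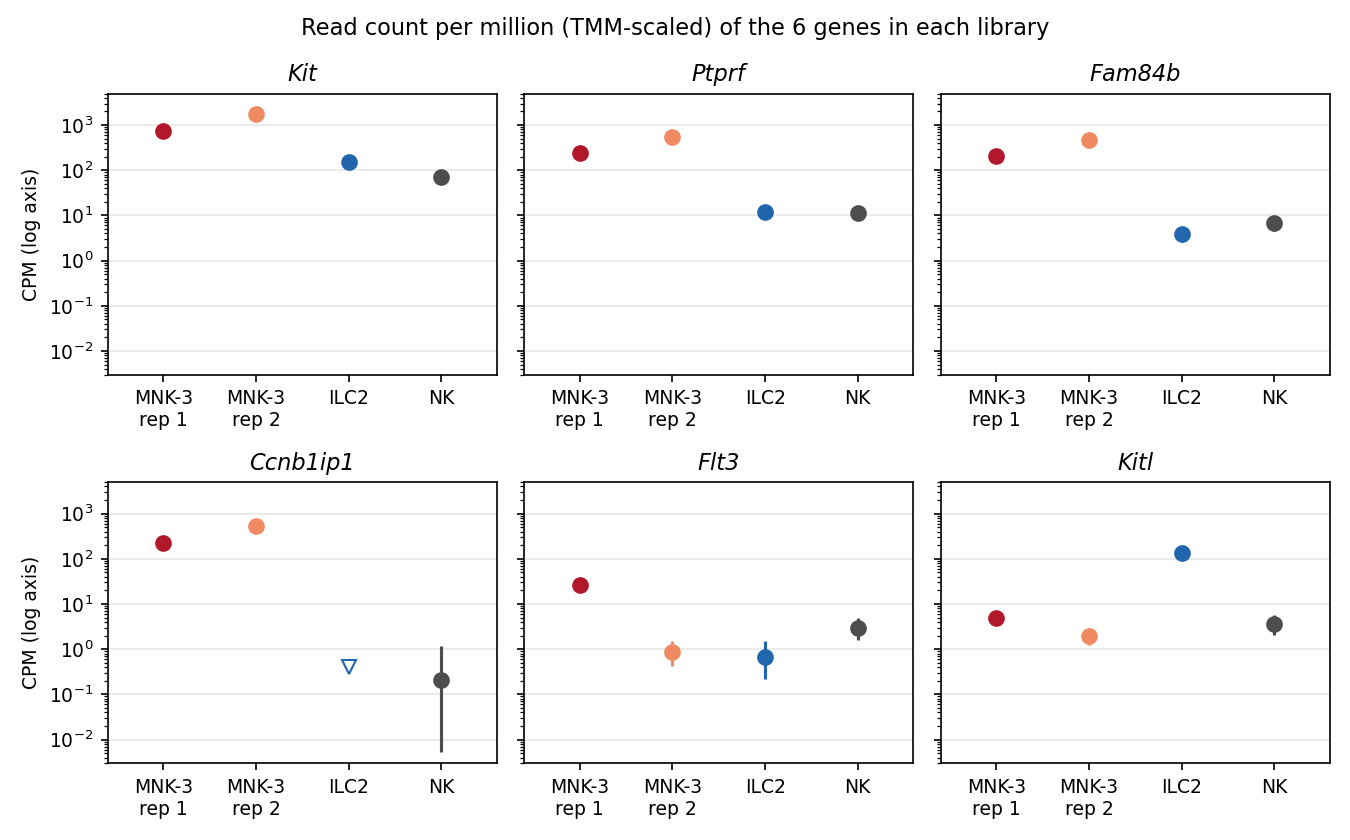
Level of each of the 6 genes in the 4 libraries, in CPM on a log axis, in the order MNK-3 replicate 1, MNK-3 replicate 2, ILC2 and NK. Bars are 95% Poisson intervals of the count, and an open triangle marks a library with no counts, drawn at the level of 3 counts. Kit, Ptprf, Fam84b and Ccnb1ip1 are high in both MNK-3 libraries, Flt3 is high in MNK-3 replicate 1 only, and Kitl is high in ILC2 only.

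Kit (ENSMUSG00000005672, mm10 chr5:75574916-75656722, plus strand) was the most abundant of the 6 genes in MNK-3. It had 752 and 1802 CPM in MNK-3 replicates 1 and 2, 150.2 CPM in ILC2 (interval 142 to 159) and 71.0 CPM in NK cells (63.6 to 78.9). Both MNK-3 libraries lay above both other libraries, with a mean of 1277 ± 742 CPM (SD, n = 2), and the intervals of ILC2 and NK cells did not overlap. Ranked by CPM, Kit was gene 18 of the shared genes in MNK-3 replicate 1 and gene 15 in replicate 2, against 1956 in ILC2 and 3158 in NK cells. Kit was therefore read in every cell type: 1140 reads in ILC2 and 341 in NK cells stood behind the lower values. Relative to NK cells, the CPM ratio was 10.6 for MNK-3 replicate 1 (interval 9.53 to 11.8) and 25.4 for replicate 2 (22.8 to 28.3). Relative to ILC2 it was 5.01 and 12.0. ILC2 had 2.12 times the CPM of NK cells (1.87 to 2.40). On the log2(CPM + 0.5) scale, the mean of the MNK-3 libraries lay 4.16 above NK cells and 3.08 above ILC2. In bulk RNA, fewer cells of a type and less RNA per cell cannot be told apart, so the levels in ILC2 and NK cells could be those of all cells or of some.

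Ptprf (ENSMUSG00000033295, chr4:118208213-118291405, minus strand) encodes LAR, a transmembrane receptor tyrosine phosphatase with immunoglobulin and fibronectin domains outside the cell, known for its part in cell adhesion and axon guidance. It had 240.7 and 535 CPM in MNK-3 replicates 1 and 2, 12.0 CPM in ILC2 (9.65 to 14.7) and 11.2 CPM in NK cells (8.44 to 14.7). The MNK-3 mean was 388 ± 208 CPM (SD, n = 2), and the intervals of ILC2 and NK cells overlapped. The log2 difference was 5.05 for MNK-3 over NK cells and 4.96 for MNK-3 over ILC2, whereas ILC2 and NK cells differed by 0.09. Unlike those of Kit, the levels of Ptprf in ILC2 and NK cells were not separated by more than counting error.

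Fam84b (ENSMUSG00000072568, chr15:60818994-60853778, minus strand) encodes a protein with an LRAT-like domain whose function is poorly known. It had 212 and 475.5 CPM in MNK-3 replicates 1 and 2, 3.82 CPM in ILC2 (2.56 to 5.49) and 6.66 CPM in NK cells (4.56 to 9.40). Only 29 and 32 reads stood behind the ILC2 and NK values, against 7544 and 6146 in the MNK-3 libraries. The MNK-3 mean of 344 ± 186 CPM (SD, n = 2) lay 5.59 above NK cells and 6.32 above ILC2 on the log2 scale, and ILC2 lay 0.73 below NK cells. A gene on the opposite strand, 9930014A18Rik, shares 2474 of the 5926 exon bases of Fam84b and is in the gene list used for ILC2 and NK cells, where it had 18 and 21 reads, but not in the list used for MNK-3. With those reads added to Fam84b in ILC2 and NK cells, the log2 difference was 4.90 for MNK-3 over NK cells and 5.69 for MNK-3 over ILC2.

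Ccnb1ip1 (ENSMUSG00000071470, chr14:50789248-50807732, minus strand) encodes HEI10, a RING-type E3 ligase that marks crossover sites in meiosis. It had 222 and 527 CPM in MNK-3 replicates 1 and 2, from 7908 and 6810 reads, with no read in ILC2 and 1 read, or 0.208 CPM, in NK cells. Against the level of 3 counts in the ILC2 library (0.395 CPM), the gene as counted was at least 563-fold higher in MNK-3 replicate 1 and at least 1333-fold higher in replicate 2. Against the single NK read the ratios were 1069 (192 to 42210) and 2532 (454 to 100000). As counted, these were the highest log2 differences of the 6 genes, at 9.05 over NK cells and 9.55 over ILC2.

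The count of Ccnb1ip1 depends on which neighbouring genes were counted. Exon 1 of the transcript Ccnb1ip1-202 (chr14:50807500-50807732, 233 bases, in the untranslated 5′ part) lies wholly within Rpph1 (chr14:50807449-50807767, 319 bases, same strand), the gene of the RNA subunit of ribonuclease P, the enzyme that trims the 5′ ends of tRNAs. The start of Rpph1 is shown because it carries the shared bases. It is read from the GENCODE M21 transcripts on the minus strand of chr14:50807703-50807767, and capitals mark the first 30 bases that are also exon 1 of Ccnb1ip1.
Rpph1: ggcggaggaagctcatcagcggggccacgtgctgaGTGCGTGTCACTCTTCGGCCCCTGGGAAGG
A read that lies within the capitals, or in the rest of that exon, can be from either gene, and its strand does not separate them. Rpph1 is in the gene list used for ILC2 and NK cells, where it had 4036 reads (532 CPM) and 1914 reads (398 CPM). It is not in the list used for MNK-3, so reads from the shared exon cannot be told apart there. The sum of both genes was 222 and 527 CPM in MNK-3 replicates 1 and 2, 532 CPM in ILC2 and 398.5 CPM in NK cells. These sums overlapped between MNK-3 and the primary cells, but they may not hold the same reads. In MNK-3, Rpph1 reads outside the shared exon were not counted for either gene. In ILC2 and NK cells, whether reads on the shared bases were counted for a gene is not stated. As a share of reads on shared genes, the sum was 0.0309% and 0.0449% in MNK-3, 0.0434% in ILC2 and 0.0413% in NK cells. The log2 difference of the sum was -0.09 for MNK-3 over NK cells and -0.51 for MNK-3 over ILC2. The level of Ccnb1ip1 mRNA itself in MNK-3 is thus not known from these counts.

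**Figure D2:**
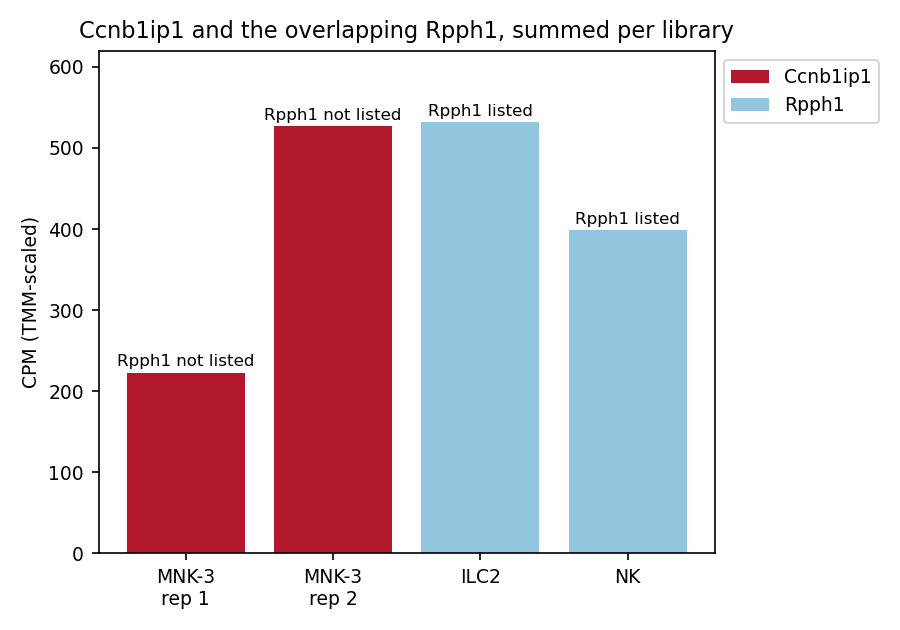
Reads of Ccnb1ip1 alone and of Ccnb1ip1 plus Rpph1 in each library, in CPM, in the order MNK-3 replicate 1, MNK-3 replicate 2, ILC2 and NK. Ccnb1ip1 alone is at or near 0 in ILC2 and NK. The sum is 222 and 527 CPM in MNK-3, where Rpph1 is not listed, 532 CPM in ILC2 and 398.5 CPM in NK.

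Flt3 (ENSMUSG00000042817, chr5:147330741-147400489, minus strand) was high in 1 MNK-3 library only. It had 26.8 CPM (953 reads) in MNK-3 replicate 1 and 0.851 CPM (11 reads) in replicate 2, against 0.659 CPM (5 reads) in ILC2 and 2.91 CPM (14 reads) in NK cells. MNK-3 replicate 2 overlapped ILC2 within counting error and lay below NK cells. The log2 difference with the mean of both libraries was 2.07 for MNK-3 over NK cells and 3.63 for MNK-3 over ILC2. Without replicate 1 these were -1.34 and 0.22. In MNK-3 replicate 1, many genes that were silent elsewhere carried reads: of 2135 protein-coding genes with no count in the other 3 libraries, 1511 had a count there, with a median of 0.177 CPM per kb of exon. Flt3, at 4.34 CPM per kb in that library, was at or above 99.8% of them. Flt3 had reads in the other libraries and so is not of that set, and its rank there is no test of signal above background. For the 3512 genes at low level in MNK-3 replicate 2 (0.4 to 2 CPM), the log2 ratio between the MNK-3 libraries, replicate 1 over replicate 2, had a median of 1.89, and Flt3 stood at 4.34, above 98.2% of them. Gm26597, a gene on the opposite strand at Flt3, had 119 reads in MNK-3 replicate 1 and 1 read in each other library.

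Kitl (ENSMUSG00000019966, chr10:100015630-100100416, plus strand) was high in ILC2 and low in both MNK-3 and NK cells. It had 4.87 and 1.93 CPM in MNK-3 replicates 1 and 2, from 173 and 25 reads, 137.5 CPM in ILC2, from 1044 reads, and 3.54 CPM in NK cells, from 17 reads. ILC2 lay above the other 3 libraries, and the NK interval of 2.06 to 5.66 CPM overlapped those of both MNK-3 libraries (4.17 to 5.65 CPM and 1.25 to 2.86 CPM). The CPM of ILC2 was 38.9 times that of NK cells (24.2 to 67.0), or 5.10 on the log2 scale. The log2 difference was -5.15 for MNK-3 over ILC2 and -0.05 for MNK-3 over NK cells. In MNK-3 replicate 1 the level per kb of Kitl was at or above that of 89.0% of the 2135 protein-coding genes silent in the other libraries. Kitl was read in those libraries, so this rank too is no test of signal above background. Per kb of exon, ILC2 had 23.3 CPM of Kitl and 16.9 CPM of Kit, so ligand and receptor lay at like levels there, whereas MNK-3 had 84.4 and 202 CPM per kb of Kit against 0.823 and 0.327 of Kitl. In NK cells Kit had 7.96 CPM per kb and Kitl 0.599.

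The 4 genes high in MNK-3 were lower in replicate 1 than in replicate 2 by nearly the same factor. The log2 ratio of replicate 1 over replicate 2 was -1.26 for Kit, -1.15 for Ptprf, -1.16 for Fam84b and -1.24 for Ccnb1ip1. The median over 3373 abundant genes, those with at least 100 CPM in replicate 2, was -0.97 (quartiles -1.09 and -0.83), so the shift of the 4 genes lay a little past the lower quartile. With scaling by library totals alone, the ratios were -0.56 for Kit, -0.45 for Ptprf, -0.46 for Fam84b and -0.54 for Ccnb1ip1. Relative to NK cells, the lower of the MNK-3 libraries still gave log2 differences of 3.40 for Kit, 4.36 for Ptprf and 4.89 for Fam84b.

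Set among all genes, both MNK-3 libraries lay above both ILC2 and NK cells for 5037 of 25283 genes (19.9%), including Kit, Ptprf, Fam84b and Ccnb1ip1 but not Flt3 or Kitl. This is the property by which those 4 genes were picked, so nothing is read from it. Differences of 2-fold or more were common in this scaling: 35.2% of genes were that much higher in MNK-3 and 7.16% that much lower, set against NK cells, where 5 members were higher and 0 lower. That count was 4 higher and 0 lower with Rpph1 reads added to Ccnb1ip1, and 4 higher and 1 lower, Flt3, without MNK-3 replicate 1. In MNK-3 against ILC2, 40.1% were higher and 8.55% lower, where 5 members were higher and 1 was lower, or 4 and 1 under either change. In ILC2 against NK cells, 15.2% were higher and 15.6% lower, where 2 members were higher and 1 was lower. The median log2 difference was 4.60 over the 6 genes and 0.68 over all tested genes for MNK-3 over NK cells. For MNK-3 over ILC2 these were 4.29 and 0.78. For ILC2 over NK cells they were -0.21 and -0.05. Because 4 of the 6 genes were picked for high CPM in MNK-3, nothing is read from these gaps or from the ranks below. The medians of all genes depend on the scaling and on replicate 1: for MNK-3 over NK cells and over ILC2 they were 0.38 and 0.54 with median-of-ratios factors, 0.88 and 1.13 with library totals, 0.97 and 1.20 with factors from abundant genes, and -0.07 and 0.00 without MNK-3 replicate 1. A stricter limit, 8-fold over both other cell types at 10 CPM or more in MNK-3, was met by 233 genes (0.922%). Ranked by mean CPM in MNK-3, Kit was second of the 233, Ptprf was number 7, Ccnb1ip1 number 8 and Fam84b number 9. With Rpph1 reads added, Ccnb1ip1 would not be in the set. Just below them came Gja1, the gap junction protein connexin 43, at 328 CPM and Acpp, the prostatic acid phosphatase, at 326 CPM. Of the 233 genes, 19 had no count in either ILC2 or NK cells, and 10 of these were mitochondrially encoded. All 12 mitochondrially encoded genes tested are listed at 0 in both of those libraries, although every cell uses such genes, so their place in the set is no measure of their level. Among the 223 other genes, Kit was first, Ptprf number 3, Ccnb1ip1 number 4 and Fam84b number 5. Among all 233, Ccnb1ip1 was the sole gene that shared exon bases on its own strand with any of the 389 genes at 10 CPM or more in ILC2 or NK cells that the MNK-3 list leaves out.

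**Figure D3:**
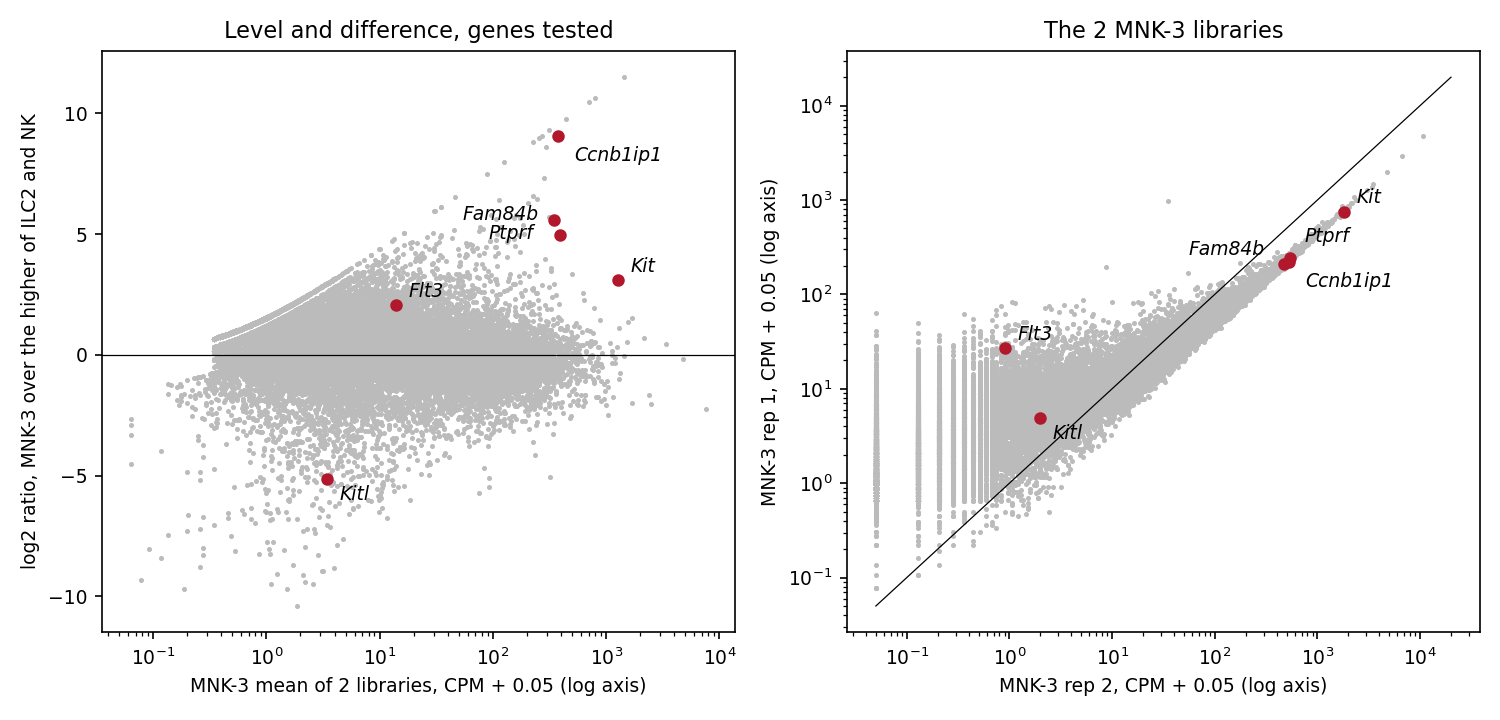
Each point is 1 of the tested genes, with the 6 genes marked by name. Left, the log2 difference of MNK-3 over the higher of ILC2 and NK against the mean CPM in MNK-3. Right, the CPM of MNK-3 replicate 1 against that of replicate 2, both on log axes. On the left, Kit, Ptprf, Fam84b and Ccnb1ip1 lie high, at log2 differences of 3.08, 4.96, 5.59 and 9.05, and Kitl lies low, at -5.15. On the right, Flt3 lies far to the side of replicate 1. With Rpph1 reads added, Ccnb1ip1 would lie at -0.51 on the left.

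The members took no test, but other genes of their families and pathways did (limma voom, Benjamini-Hochberg adjusted p over all 25283 genes). Over all genes, 0.526% were called in MNK-3 over NK cells, 0.00791% higher (2 genes) and 0.518% lower (131 genes), or 73 higher and 517 lower with library totals. In MNK-3 over ILC2, 0.34% were called, 0.00791% higher (2 genes) and 0.332% lower (84 genes), or 228 higher and 603 lower with library totals. In ILC2 over NK cells limma voom called 0 genes (0.0%), with 589 at an unadjusted p under 0.05. With factors from genes abundant in every library, none of the 15 list genes called in the comparisons of MNK-3 passed (adjusted p = 1.0 for each), and all 15 kept their direction. Of the other class III receptors and their ligands, none of 10 genes was called in any comparison. The ligand Pdgfc, of the platelet-derived growth factor family, had 19.7 and 40.8 CPM in MNK-3, 0.922 CPM in ILC2 and 0.416 CPM in NK cells, which placed both MNK-3 libraries above the others. Pdgfb, a second ligand of that family, had 17.3 and 16.2 CPM in MNK-3, 20.2 CPM in ILC2 and 106 CPM in NK cells. The receptor genes were low: Csf1r had 9.87 and 1.55 CPM in MNK-3, Pdgfra 8.61 and 0.542 CPM, and Pdgfrb 15.8 and 1.63 CPM, in each case higher in replicate 1. Flt3l, the ligand of FLT3, had 16.5 and 7.35 CPM in MNK-3, 8.17 CPM in ILC2 and 15.2 CPM in NK cells, with overlap between MNK-3 and both other cell types. Of the class III receptor genes, Kit had the highest level per kb in each of the 4 libraries.

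**Figure D4:**
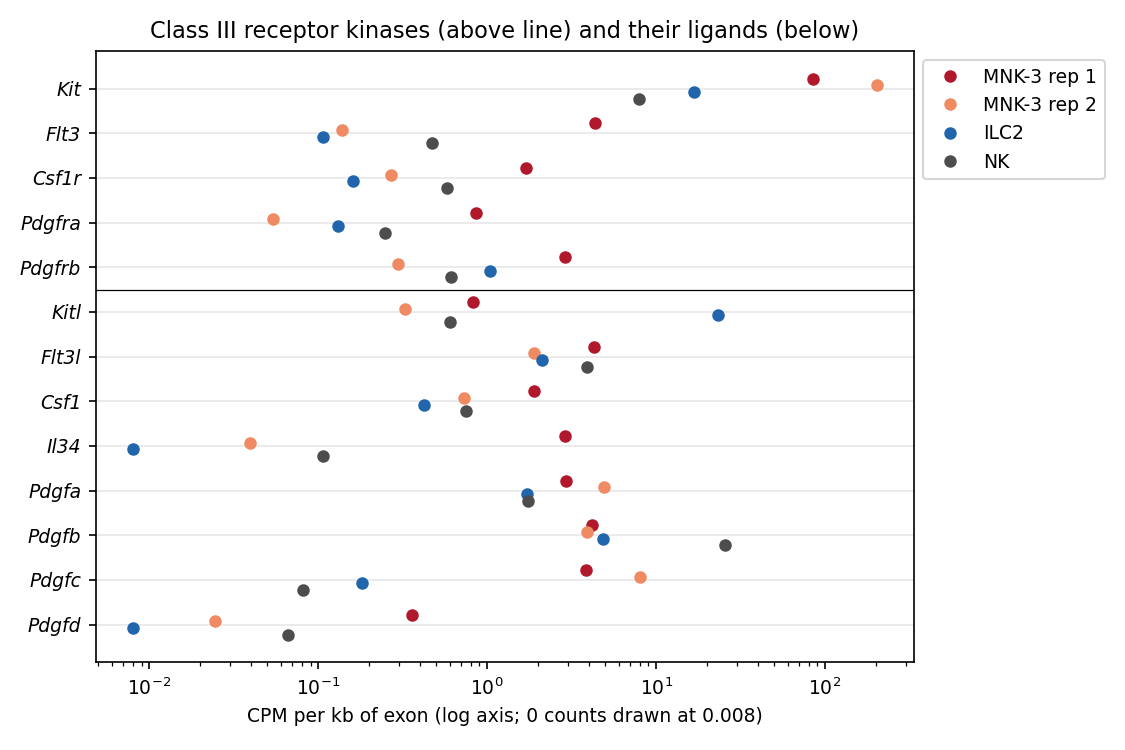
Levels per kb of exon of the class III receptor tyrosine kinases and of their ligands in the 4 libraries, in CPM per kb on a log axis, with receptors above the line and ligands below it and 0 counts drawn at the left edge. Kit stands highest in both MNK-3 libraries at 84.4 and 202 CPM per kb, and Kitl in ILC2 at 23.3 CPM per kb.

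Of the genes listed as carrying the KIT signal inside the cell, none was called higher in MNK-3. All 33 listed genes were tested. Relative to NK cells, 4 were 2-fold or more higher and 6 lower, where 35.2% and 7.16% of all genes were. Relative to ILC2, 1 was higher and 12 lower, where 40.1% and 8.55% of all genes were. Their median log2 difference was 0.01 over NK cells and -0.66 over ILC2, against 0.68 and 0.78 over all tested genes. The medians over all tested genes fell without MNK-3 replicate 1, as given above, so the gap to this list depends on that library. The list holds Pdk1, which in mouse is the symbol of a pyruvate dehydrogenase kinase and not of the kinase of that name in KIT signalling. Without it, 11 of 32 genes were lower relative to ILC2 and the median was -0.61. One was called: Lck, a kinase of the Src family best known in T cells, fell to 23.2 and 2.79 CPM in MNK-3, against 564 CPM in NK cells (limma voom log2 difference -5.56 ± 1.05 SE, adjusted p = 0.000148). The log2 difference of Lck was -7.43 without MNK-3 replicate 1 and -4.58 without replicate 2. ILC2 had 3.56 CPM of Lck. Pik3r1, the regulatory subunit of phosphoinositide 3-kinase, had 67.4 and 107 CPM in MNK-3, 306 CPM in ILC2 and 935 CPM in NK cells. Jak2, a kinase that activates STAT proteins, had 74.99 and 151 CPM in MNK-3, 971 CPM in ILC2 and 172.5 CPM in NK cells. Sos1, an exchange factor that loads RAS, had 89.6 and 161 CPM in MNK-3, 663 CPM in ILC2 and 86.6 CPM in NK cells. Ptpn11, the SHP2 phosphatase that acts downstream of KIT, had 188 and 343 CPM in MNK-3, 168 CPM in ILC2 and 168 CPM in NK cells. Jak2 and Sos1 were thus highest in ILC2 and Pik3r1 in NK cells, and none of these passed the test.

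Of 23 genes that restrain KIT or its pathway, 1 was called lower in MNK-3 relative to NK cells and none relative to ILC2. That gene, Dok2, an adaptor that recruits RAS-GAP, fell to 22.5 and 6.03 CPM in MNK-3, against 225 CPM in NK cells (limma voom log2 difference -4.08 ± 0.92 SE, adjusted p = 0.00359), and had 42.7 CPM in ILC2. The call on Dok2 was also lost with median-of-ratios factors (limma voom adjusted p = 0.088), and its log2 difference was -5.11 without MNK-3 replicate 1 and -3.29 without replicate 2. Spry2, a Sprouty inhibitor of receptor kinase signalling, had 184 and 415 CPM in MNK-3, 2.77 CPM in ILC2 and 212 CPM in NK cells, so ILC2 alone was low. Sla, the SLAP adaptor that promotes receptor breakdown through CBL, had 530 and 1014 CPM in MNK-3, 102 CPM in ILC2 and 408.5 CPM in NK cells. Inpp5d, the lipid phosphatase SHIP1, had 121 and 207 CPM in MNK-3, 433 CPM in ILC2 and 587.5 CPM in NK cells. The median log2 difference of the 23 genes was -0.02 over NK cells and 0.69 over ILC2.

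None of 27 transcription factor genes tied to Kit expression in blood cells was called in any comparison. Some factors that act at Kit in mast cells and progenitors were low in every library. Tal1 had 5.40 and 0.851 CPM in MNK-3, 1.845 CPM in ILC2 and 1.46 CPM in NK cells. Gata2 had 7.28 and 2.32 CPM in MNK-3, 7.905 CPM in ILC2 and 7.075 CPM in NK cells. Gata1 had 6.02 and 0.542 CPM in MNK-3, 1.845 CPM in ILC2 and 1.04 CPM in NK cells. Other factors on the list stood at higher levels. Runx1 had 66.3 and 83.1 CPM in MNK-3, 87.5 CPM in ILC2 and 293 CPM in NK cells. Myb had 58.1 and 26.2 CPM in MNK-3, 40.6 CPM in ILC2 and 41.0 CPM in NK cells. Fli1 had 102 and 221 CPM in MNK-3, 158 CPM in ILC2 and 290 CPM in NK cells. Mitf, a regulator of Kit in mast cells and melanocytes, had 33.0 and 71.1 CPM in MNK-3, 7.25 CPM in ILC2 and 2.08 CPM in NK cells. Ahr, the aryl hydrocarbon receptor, reported to promote Kit in ILC3, had 128 and 304 CPM in MNK-3, 110 CPM in ILC2 and 18.5 CPM in NK cells. Klf4, a zinc finger factor, had 37.7 and 76.4 CPM in MNK-3, 2.37 CPM in ILC2 and 14.6 CPM in NK cells. Gata3, the regulator of ILC2, had 70.2 and 109 CPM in MNK-3, 1244 CPM in ILC2 and 122 CPM in NK cells.

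Markers of other KIT-bearing or FLT3-bearing cells gave no uniform pattern. The 14 mast cell markers summed to 80.3 and 82.9 CPM in MNK-3, 32.2 CPM in ILC2 and 205 CPM in NK cells, and none was called. Mast cell proteases and Fc receptor genes were at or near 0 in MNK-3 replicate 2: Cpa3 had 5.93 and 0.542 CPM in MNK-3 replicates 1 and 2, Fcer1a 1.18 and 0 CPM, Ms4a2 2.00 and 0.0774 CPM, and Tpsb2 1.04 and 0.155 CPM. Of the 82.9 CPM in replicate 2, Mitf gave 71.1 CPM. In NK cells the sum was mostly Cma1, a chymase gene, at 154 CPM. The 12 stem and progenitor markers summed to 103 and 57.2 CPM in MNK-3, 911.5 CPM in ILC2 and 27.5 CPM in NK cells. Most of the ILC2 sum came from Hlf and Cd34. Set against ILC2, 7 of the 12 were 2-fold or more higher in MNK-3 and 3 lower, where 40.1% and 8.55% of all genes were. Meis1 had 13.78 and 20.97 CPM in MNK-3, 3.82 CPM in ILC2 and 7.075 CPM in NK cells. Slamf1 had 22.2 and 0.0774 CPM in MNK-3, 0.132 CPM in ILC2 and 1.25 CPM in NK cells. Hlf, a factor of blood stem cells, fell to 15.6 and 30.3 CPM in MNK-3, against 724 CPM in ILC2 (limma voom adjusted p = 0.00618, or 0.237 with median-of-ratios factors). Cd34, a surface protein of progenitors, had 5.77 and 0.155 CPM in MNK-3, 167 CPM in ILC2 and 0.416 CPM in NK cells. The part of such cells in the Kit and Kitl levels of ILC2 was not tested. The 12 stromal and endothelial markers summed to 113 and 36.0 CPM in MNK-3, 287 CPM in ILC2 and 121 CPM in NK cells. Of the ILC2 sum, 255 CPM was Pecam1, which blood cells also express. Cxcl12, a chemokine of stromal cells, had 7.06 and 2.63 CPM in MNK-3, 13.3 CPM in ILC2 and 5.20 CPM in NK cells. In ILC2 the fibroblast collagen genes Col1a1 and Col1a2 had 4.35 CPM each and Cdh5, of endothelium, 0.132 CPM. The 12 dendritic and monocyte markers summed to 127 and 142 CPM in MNK-3, 27.1 CPM in ILC2 and 535 CPM in NK cells. Zbtb46 gave 51.3 and 82.4 CPM of the MNK-3 sums. Batf3, a factor of dendritic cells, had 22.2 and 45.7 CPM in MNK-3, 2.64 CPM in ILC2 and 3.33 CPM in NK cells. Xcr1, a chemokine receptor, had 11.1 and 11.4 CPM in MNK-3, 8.04 CPM in ILC2 and 0.208 CPM in NK cells. In MNK-3, Clec9a, Siglech and Lyz2 were each at or under 3.74 CPM. Itgax, the integrin CD11c, which NK cells also carry, fell to 11.3 and 0.309 CPM in MNK-3, against 509 CPM in NK cells (limma voom adjusted p = 0.000983). Its log2 difference was -9.30 without MNK-3 replicate 1 and -5.43 without replicate 2. The 12 T cell markers summed to 182.5 and 168 CPM in MNK-3, 20.2 CPM in ILC2 and 89.3 CPM in NK cells, of which Trbc1 gave 60.9 and 135 CPM in MNK-3. Cd3e had 21.9 CPM in MNK-3 replicate 1 and 0.0774 CPM in replicate 2.

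Ptprf was compared with the rest of its family and with known partners of LAR. Of 33 such genes, 13 were 2-fold or more higher in MNK-3 and 1 lower, relative to NK cells, where 35.2% of all genes were higher, and none was called. Against ILC2, 16 were higher and 2 lower, where 40.1% and 8.55% of all genes were. The median log2 difference of the list was 0.56 over NK cells and 0.71 over ILC2. Over all tested genes it was 0.68 and 0.78. In the comparison with ILC2, 1 gene of the list was called. Enah, an actin regulator whose Drosophila relative binds LAR, fell to 28.5 and 3.87 CPM in MNK-3, against 245 CPM in ILC2 (limma voom log2 difference -4.18 ± 0.99 SE, adjusted p = 0.012). The call was lost with median-of-ratios factors (limma voom adjusted p = 0.151), and the log2 difference of Enah was -5.81 without MNK-3 replicate 1 and -3.08 without replicate 2. The related phosphatase Ptprs had 237 and 444.5 CPM in MNK-3, 121 CPM in ILC2 and 62.2 CPM in NK cells. Ptprd, the third member of that family, had 27.0 and 0.851 CPM in MNK-3, 1.71 CPM in ILC2 and 1.87 CPM in NK cells, and so was high in replicate 1 only, as Flt3 was. The heparan sulfate proteoglycan Sdc1, of a class that binds LAR in Drosophila, had 123 and 251 CPM in MNK-3, 5.40 CPM in ILC2 and 2.08 CPM in NK cells. Sdc4 had 160 and 359 CPM in MNK-3, 91.7 CPM in ILC2 and 22.3 CPM in NK cells. Ppfibp2, of the liprin family of LAR partners, had 24.1 and 38.3 CPM in MNK-3, 9.22 CPM in ILC2 and 1.25 CPM in NK cells. Sdc1, Sdc4 and Ppfibp2 were higher in both MNK-3 libraries than in the others, and none of them passed the test.

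Of 37 other meiotic crossover and synapsis genes, 36 were matched and tested, and none was called. The median log2 difference was 1.08 for MNK-3 over NK cells and 1.03 for MNK-3 over ILC2, against 0.68 and 0.78 over all tested genes. Without MNK-3 replicate 1 the medians of the list were -0.29 and 0.10, against -0.07 and 0.00 over all tested genes. Rnf212, a meiotic RING protein related in role to HEI10, had 1.74 CPM in MNK-3 replicate 1 and no read in replicate 2. Sycp3, of the synaptonemal complex, had 0.647 and 0.0774 CPM in MNK-3, and Dmc1, the meiotic recombinase, 3.12 and 0.0774 CPM. Cdk2, a kinase that also works in dividing cells, had 83.4 and 135 CPM in MNK-3, 60.0 CPM in ILC2 and 5.83 CPM in NK cells. Ccnb1, the cyclin B1 that HEI10 is reported to bind in human cells, had 35.9 and 52.1 CPM in MNK-3, 80.1 CPM in ILC2 and 0.416 CPM in NK cells. None of 11 genes on the list of ubiquitin partners and cyclin B was called. The 5 other genes of the LRAT domain family, to which Fam84b belongs, were also not called. Its closest relative, Fam84a, had 3.94 and 4.26 CPM in MNK-3, 3.43 CPM in ILC2 and 2.71 CPM in NK cells.

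For each of the 6 genes, the genes with the most similar profile were taken as those with the smallest Euclidean distance over the 4 libraries, after centring log2(CPM + 0.5) on each gene's own mean, among genes averaging at least 10 CPM (10098 or 10099 compared). Closest to Kit were S100a4 (distance 0.05), Bbs7, Npas2, Dusp4 and Tnfrsf21. S100a4, a calcium-binding protein, had 32.1 and 75.2 CPM in MNK-3, 6.06 CPM in ILC2 and 2.50 CPM in NK cells, the same graded order as Kit. Dusp4, a phosphatase of MAP kinases, had 83.9 and 188 CPM in MNK-3, 15.8 CPM in ILC2 and 5.83 CPM in NK cells. Closest to Ptprf were Dlg5, a scaffold protein of cell junctions, 9330182L06Rik, Eya4, Fermt2 and Smoc2, with Dlg5 at 110 and 230 CPM in MNK-3, 4.88 CPM in ILC2 and 4.99 CPM in NK cells. Closest to Fam84b were Adamts15, Psd2, Map2, Tdrd9 and Lta, the lymphotoxin alpha gene, at 20.4 and 39.1 CPM in MNK-3, 0 CPM in ILC2 and 0.416 CPM in NK cells. Closest to Ccnb1ip1 were mt-Nd2, mt-Nd6, Il23r, mt-Nd4 and mt-Cytb, all listed at 0 in ILC2 and NK cells. Among the closest to Flt3 were Ptpn14, Ccr9, Cacna1c and Cacna1d, each high in MNK-3 replicate 1 alone, with gene bodies of 106 to 609 kb, against a median of 25.5 kb over the genes compared. Closest to Kitl were Htr1b, Fam213a, Car8, Sncg and Ffar2, a receptor for short-chain fatty acids, at 3.09 and 0.696 CPM in MNK-3, 119 CPM in ILC2 and 2.08 CPM in NK cells. Among the 6 themselves, Fam84b and Ptprf were closest (1.11), then Kit and Ptprf (1.57).

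The neighbours of the 6 genes along the genome mostly did not share their profiles. Of 4 other protein-coding genes within 500 kb of Kit, 1 reached 10 CPM in any cell type and none was 2-fold higher in MNK-3 than in both other cells. The receptor tyrosine kinase genes that flank Kit were low, Pdgfra at 8.61 and 0.542 CPM and Kdr at 6.95 and 0.387 CPM in MNK-3. Of 28 genes near Ptprf, 12 reached 10 CPM and 2 of these were 2-fold higher in MNK-3 than in both others: Slc6a9, a glycine transporter, and St3gal3, a sialyltransferase 73.3 kb away, at 56.0 and 93.6 CPM in MNK-3, 24.5 CPM in ILC2 and 10.4 CPM in NK cells. Kdm4a, a histone demethylase 28.2 kb from Ptprf, had 116 and 224 CPM in MNK-3, 194 CPM in ILC2 and 168 CPM in NK cells. The one protein-coding neighbour of Fam84b, A1bg, 43.1 kb away, had 6.19 and 8.90 CPM in MNK-3, no count in ILC2 and 0.832 CPM in NK cells. Near Ccnb1ip1, 7 of 41 genes reached 10 CPM, and Parp2, a DNA repair gene 0.1 kb away on the far side of the shared exon, had 32.0 and 54.5 CPM in MNK-3, 45.5 CPM in ILC2 and 24.4 CPM in NK cells. Pnp, 123 kb away, was the one gene there that was 2-fold higher in MNK-3 than in both others. Near Flt3, 8 of 14 genes reached 10 CPM and none was 2-fold higher in MNK-3 than in both others. Near Kitl, 3 of 11 reached 10 CPM, 2 of them were 2-fold higher in MNK-3 than in both others, and none was highest in ILC2. Cep290, a gene of the ciliary base, had 68.5 and 106 CPM in MNK-3, 47.3 CPM in ILC2 and 4.16 CPM in NK cells.

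The promoters of Kit and Ptprf, the pair of genes high in MNK-3 whose exons no other gene shares, are shown as the 250 bases before the RefSeq start site in GRCm38.p6. RefSeq promoters were matched for 5 of the 6 genes, all but Fam84b. Capitals mark matches to GGGCGG, the SP1 box, and AGGAAG, an ETS core, searched on both strands. The Kit sequence is chr5:75574737-75574986, plus strand, and the Ptprf sequence is chr4:118291398-118291647, minus strand.
Kit: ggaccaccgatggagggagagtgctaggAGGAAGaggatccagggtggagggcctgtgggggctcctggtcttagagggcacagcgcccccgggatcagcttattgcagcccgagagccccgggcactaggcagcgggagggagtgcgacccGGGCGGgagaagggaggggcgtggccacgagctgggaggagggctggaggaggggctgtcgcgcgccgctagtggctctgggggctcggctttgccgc
Ptprf: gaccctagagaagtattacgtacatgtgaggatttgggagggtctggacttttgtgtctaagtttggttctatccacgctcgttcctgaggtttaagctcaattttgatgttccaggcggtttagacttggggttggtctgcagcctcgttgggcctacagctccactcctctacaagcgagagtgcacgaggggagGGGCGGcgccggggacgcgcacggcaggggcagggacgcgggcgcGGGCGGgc
The Kit window was 70.8% G or C, above 92.1% of 27025 promoters of the same length, and the Ptprf window 59.2%, where the median was 52.0%. GGGCGG occurred once before Kit, 98 bases upstream, and at 53 and 8 bases upstream of Ptprf, and was present in 32.9% of all promoters. AGGAAG occurred once before Kit, 222 bases upstream, and was present in 29.2%. The Kitl window had 3 matches to GGGCGG, with 1 pair overlapping. The letters AGATAA, a core for factors of the GATA family, and TGTGGT, for RUNX proteins, were in none of the 5 windows. The same held for CAGCTG, an E box, for TGANTCA, bound by AP-1, and for CACGTG, an E box of MYC. A match is a description of the letters and not a site of binding.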

How the data were processed

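Strand-marked total RNA libraries (SMARTer Stranded Pico kit) were sequenced as pairs of 38-base reads, per the labels' protocols. Those protocols mention 2 technical replicates, but each deposited table has 1 column, and whether runs were pooled is not stated. Per the submitters' processing notes, the authors aligned reads with STAR 2.7.8a to mm10/GRCm38 and counted them with HTSeq. The strand setting and the gene set are not given in the sources used here. The unit of the deposited values is recorded as other: they are whole-number counts per gene, not normalized, in tab-separated tables under another type of name, which the unit check could not read as counts. ILC2 and NK were counted over 53465 genes and MNK-3 over 31053. The 30731 shared genes were used, which left out 22734 and 322. The genes left out held 0.131% and 0.0399% of gene reads in MNK-3, 1.89% in ILC2 and 3.05% in NK. Entries that name no gene were also left out, and held 76.5% and 26.6% of reads in MNK-3, 25.9% in ILC2 and 49.3% in NK.

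CPM were scaled by trimmed means of M values in own code (factors 1.39 and 0.852 for MNK-3, 0.816 for ILC2 and 1.04 for NK), and 0.5 CPM was added before log2. MNK-3 is the mean of its 2 libraries. Genes with a scaled count under 10 or a total under 15 were filtered. For genes other than the 6, limma voom (limma 3.58.1, R 4.3.3) was fitted to all 4 libraries in 3 groups, where the MNK-3 pair leaves 1 residual degree of freedom, and with prior degrees of freedom estimated as infinite, so p-values rest on a spread pooled over genes. Tests were two-sided with Benjamini-Hochberg adjustment over 25283 genes at 0.05. Tested on simulated data for MNK-3 over NK (24099 genes), the fit called 7.46% at a 2-fold change, 89.6% at 4-fold, 98.5% at 8-fold, and 35 unchanged genes.

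The 6 genes and the 17 gene lists were chosen with earlier results of these data known. From each list, the text takes from the up to 4 genes with the largest log2 difference at 10 CPM or more in the higher group, and any gene called. Some list genes lie outside that rule and were chosen after their values were seen. They include markers and receptors at low level, Ptpn11, Inpp5d, Ptprs, Fam84a, Rnf212, Sycp3, Dmc1, Tal1, Runx1, Myb and Fli1. Exact Poisson intervals and floors of 3 counts cover counting error only. Other library factors, filters, pseudocounts, thinning to the smallest library, leaving out an MNK-3 replicate and, added after seeing the data, adding Rpph1 reads and leaving out Pdk1 or the mitochondrially encoded genes were tried. A few list genes and profile neighbours are not reported here.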

Additional observations from a re-analysis of the deposited data

Results flagged for a closer look

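Reads on a gene outside the main measurement stood out. Rpph1, which is in the gene list used for ILC2 and NK cells and not in the list used for MNK-3, had 4036 reads in ILC2 and 1914 reads in NK cells. It spans all 233 bases of exon 1 of the transcript Ccnb1ip1-202 on the same strand, and Ccnb1ip1 had 7908 and 6810 reads in the MNK-3 libraries, none in ILC2 and 1 in NK cells. How many of the MNK-3 reads come from each gene was not tested, since the counts do not hold read positions. No group has the 4 samples that a check for a single aberrant library needs.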

How the results depend on the processing

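Changes in single members were set against the replicate SD, or against counting error for ILC2 over NK. For Ccnb1ip1 there, whose interval has no lower end, a fixed 3.0 on the log2 scale was used. The SD rests on the same 2 MNK-3 libraries that the leave-out settings use, so moving by less is no measure of stability. Of 135 values under an alternative, 125 moved by less than that limit and the others moved by more. The sign changed in 11: for Ccnb1ip1 with Rpph1 reads added (-0.089 over NK and -0.51 over ILC2, and 0.42 in ILC2 over NK), for Flt3 over NK without MNK-3 replicate 1 (-1.34, against 2.07), for Kitl over NK in 4 settings (0.11 to 0.41, against -0.05) and for Ptprf in ILC2 over NK in 3 (-0.31 to -0.22, against 0.09). Genes called in MNK-3 over NK were 133, against 590 (library totals), 88 (factors from abundant genes) and 571 (thinned). In MNK-3 over ILC2 they were 86, against 55 (median of ratios), 831 (totals), 247 (abundant genes) and 267 (thinned). In ILC2 over NK they were 0, against 332, 41 and 231 for the last 3 settings and 39 with no filter.

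The median of the members in MNK-3 over ILC2 was 4.29, against 3.95 (median of ratios), 4.75 (totals), 4.82 (abundant genes), 4.58 (thinned), 4.60 and 3.94 (0.1 and 2 CPM added), 4.42 to 4.50 with an MNK-3 replicate left out and 3.36 with Rpph1. In MNK-3 over NK it was 4.60, against 3.88 to 5.08 with an MNK-3 replicate left out and 3.12 with Rpph1 (3.115 before rounding). In ILC2 over NK it was -0.21, against -0.38 (totals), -0.36 (abundant genes), -0.43 (thinned), -0.35 and -0.032 (0.1 and 2 CPM added) and 0.25 with Rpph1. Most members were picked on their levels in MNK-3, so these medians are a description only.

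The median over all list genes was 0.54 in MNK-3 over NK and 0.68 over ILC2, and with an MNK-3 replicate left out it was -0.29 to 0.71 and -0.05 to 0.78. In ILC2 over NK it was -0.08, against -0.37 (totals), -0.35 (abundant genes) and -0.28 (thinned). The ILC2 defining list had a median of 1.66 in MNK-3 over NK, and -0.23 to 1.92 with an MNK-3 replicate left out. The ubiquitin list in ILC2 over NK had -0.026 (totals) and -0.002 (abundant genes), against 0.32. Of 9 list genes called in MNK-3 over NK, 6 passed with median-of-ratios factors, 8 with totals and 0 with factors from abundant genes. Of 6 in MNK-3 over ILC2, 4, 4 and 0 passed. The cause of these shifts was not tested, beyond the added reads. No paired analysis was possible because ILC2 and NK have 1 library each. With an MNK-3 replicate left out no residual degree of freedom remained, so those values carry no test. A fit of ILC2 and NK alone was not run, since it leaves no residual degree of freedom. Depth limits the low values most: before scaling, 1 count was worth 0.216 CPM in NK and 0.0390 CPM in MNK-3 replicate 1.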
